A study of Mus musculus with 11 samples.

Results

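The members of the cytochrome P450 families 2 and 3 were the protein-coding genes in the deposited count table whose symbol is Cyp2 with a single subfamily letter and a number, or Cyp3a with a number, which gave 57 of the 53801 genes listed. *Cyp2ab1*, a family 2 gene with a longer subfamily name and 21 reads over all mice, falls outside this rule. Their reads were compared between the renal cortex of 5 floxed control mice and 6 Cpt1aCKO mice, each mouse giving 1 RNA-Seq library. All 11 mice were males on a mixed background aged for 2 years, and both groups carried floxed *Cpt1a* and had eaten doxycycline food for 3 weeks at 5 to 8 weeks of age. In Cpt1aCKO mice the Pax8-rTTA;tetO-Cre transgenes removed *Cpt1a*, the carnitine palmitoyltransferase that admits long-chain fatty acids to mitochondria, from all tubule segments rather than from the proximal tubule alone, and nontubular cells kept the gene. The labels name the tissue kidney and the study's methods name the cortex.

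Cytochromes P450 of families 2 and 3 are heme enzymes of the endoplasmic reticulum that insert an oxygen atom into a substrate. Electrons are passed to them by cytochrome P450 reductase and, for some reactions, by cytochrome b5. Families 2 and 3 oxidize drugs and other foreign compounds, steroids, vitamin D and polyunsaturated fatty acids, and most members are best known from the liver. In the rodent kidney, members of the Cyp2c and Cyp2j subfamilies turn arachidonic acid into epoxides that act on vessels and on tubular sodium transport, and *Cyp2j5* and *Cyp2d9* are known to respond to androgens in male mice.

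Most members lie in clusters of related copies. In the GENCODE M21 annotation, 15 were on chromosome 7 (the Cyp2a and Cyp2b genes with *Cyp2e1*, *Cyp2f2*, *Cyp2g1*, *Cyp2r1*, *Cyp2s1* and *Cyp2t4*), 15 on chromosome 19 (Cyp2c), 8 on chromosome 15 (Cyp2d), 8 on chromosome 4 (Cyp2j), 10 on chromosome 5 (Cyp3a with *Cyp2w1*) and 1, *Cyp2u1*, on chromosome 3. The closest pair with an appreciable level in these kidneys was *Cyp2a4*, a steroid hydroxylase, and *Cyp2a5*, the coumarin hydroxylase, whose coding sequences differed at 23 of 1482 bases (98.4% identity). The stretch with the most differences, coding bases 580 to 669 counted from the A of the start codon, is printed because reads can be told apart only where the copies differ, and capitals mark the 5 differing bases.
*Cyp2a4*: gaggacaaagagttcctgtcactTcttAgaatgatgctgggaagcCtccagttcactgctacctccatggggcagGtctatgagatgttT
*Cyp2a5*: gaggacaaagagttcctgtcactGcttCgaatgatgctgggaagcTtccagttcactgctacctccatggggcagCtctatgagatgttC
With the base of *Cyp2a4* given before the position, the differences were T603G, A607C, C625T, G655C and T669C. Of all windows of 100 bases along the transcripts of *Cyp2a4*, 11.2% also occurred in *Cyp2a5*, so most reads of that length could be assigned. The share of windows found in any other gene was 0 for every Cyp2j member, 1.16% for *Cyp2e1*, 7.91% for *Cyp2d9* and 35.4% for *Cyp2c69*. It was 90.8% for *Cyp3a41a* and 88.2% for *Cyp3a41b*, so most of their reads of that length could not be assigned to a single gene.

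The start regions of 4 members are shown because they stand for the patterns described here, the most abundant member (*Cyp2e1*), the pair of near copies (*Cyp2a4* and *Cyp2a5*), and a major drug-metabolizing gene of the liver that was almost without reads in these kidneys (*Cyp3a11*). Each is the 250 bases before the start site in RefSeq (GRCm38.p6), written along the gene's strand, with capitals for matches to the short motifs of the TATA box (letters TATAAA), of the factor HNF1 (letters GTTAAT), of the receptor HNF4 (letters CAAAGTCCA) or of nuclear receptors in general (letters AGGTCA). GENCODE M21 places the outermost start of each of these genes inside its printed window, so the annotations differ here. Those starts are at base 140763739 (*Cyp2e1*), 26307169 (*Cyp2a4*), 26835305 (*Cyp2a5*) and 145879964 (*Cyp3a11*). The printed matches do not overlap. A match was marked wherever its letters occurred on either strand, as for the TATAAA of *Cyp3a11*, which lies far from the start site.
Cyp2e1, chr7:140763569-140763818, plus strand: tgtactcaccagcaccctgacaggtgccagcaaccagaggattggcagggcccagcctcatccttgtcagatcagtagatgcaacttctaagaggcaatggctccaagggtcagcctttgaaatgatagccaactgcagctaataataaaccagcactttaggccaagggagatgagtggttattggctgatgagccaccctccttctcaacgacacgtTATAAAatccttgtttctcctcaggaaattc
Cyp2a4, chr7:26306942-26307191, plus strand: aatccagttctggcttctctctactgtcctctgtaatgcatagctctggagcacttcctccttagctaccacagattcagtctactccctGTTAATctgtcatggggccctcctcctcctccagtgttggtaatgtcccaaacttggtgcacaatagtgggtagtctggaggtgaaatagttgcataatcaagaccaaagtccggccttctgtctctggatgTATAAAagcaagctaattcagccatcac
Cyp2a5, chr7:26835089-26835338, plus strand: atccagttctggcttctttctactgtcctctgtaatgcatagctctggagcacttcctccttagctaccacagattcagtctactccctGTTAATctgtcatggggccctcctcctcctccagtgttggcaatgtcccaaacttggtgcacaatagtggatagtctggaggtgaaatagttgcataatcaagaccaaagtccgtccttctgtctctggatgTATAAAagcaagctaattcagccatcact
Cyp3a11, chr5:145879855-145880104, minus strand: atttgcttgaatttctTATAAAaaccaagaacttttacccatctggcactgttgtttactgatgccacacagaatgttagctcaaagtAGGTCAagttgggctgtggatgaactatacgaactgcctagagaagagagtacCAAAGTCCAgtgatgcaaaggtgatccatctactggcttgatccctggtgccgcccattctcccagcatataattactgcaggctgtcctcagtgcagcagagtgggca
The start regions of *Cyp2a4* and *Cyp2a5* differed at 4 of the 249 bases that lie over each other (98.4% identity), and both held the TATA box and the HNF1 motif.

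Reads counted on genes ranged from 39628721 to 56241595 per floxed control mouse and from 43027049 to 57459929 per Cpt1aCKO mouse. As a check of the genotypes, *Cpt1a* averaged 472 ± 54.4 CPM (SD, n = 5) in floxed controls but 66.5 ± 21.1 CPM (SD, n = 6) after deletion, without overlap, where CPM stands for reads scaled to equal TMM-adjusted library sizes. The defining transporters of the proximal tubule were abundant, with *Slc34a1* at 8235 to 11156 CPM in every mouse. Mouse S7602, a Cpt1aCKO mouse, stood apart in genes with few reads, with 158 CPM on olfactory receptor genes before TMM scaling, where the remaining mice had 8.89 to 40.8 CPM. In bulk tissue, fewer cells of a type and less RNA per cell cannot be told apart.

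The kidney's share of these families was carried by few genes. In floxed control mice, level was measured as CPM per kilobase of annotated exon, the scale used here to compare genes. *Cyp2e1*, which oxidizes ethanol, acetone and other small molecules, was highest at 921 ± 109 CPM per kilobase (SD, n = 5), place 33 among 21950 protein-coding genes with a length. It was followed by *Cyp2j5*, the abundant arachidonic acid epoxygenase of mouse proximal tubule, at 651 ± 63.6 CPM per kilobase and by *Cyp2a4* at 453 ± 42.4 CPM per kilobase. Together these 3 genes held 72.3% of the summed level of all 57 members, and the 10 highest held 98.6%. None of the 3 overlapped its neighbor in the order, since the lowest floxed control mouse of each lay above the highest of the next.

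From the fourth place each member overlapped the next down to the tenth, and the order of neighbors there was within the spread between mice. These members were, from high to low, *Cyp2d12* (159 CPM per kilobase), *Cyp2j11* (141), *Cyp2d9* (138), *Cyp2a5* (103), *Cyp2d26* (75.2), *Cyp2j13* (64.4) and *Cyp2c23* (55.9), each in CPM per kilobase. The next member, *Cyp2j6*, was at 12.3 CPM per kilobase and did not overlap *Cyp2c23*. The same 10 genes were the 10 highest in Cpt1aCKO mice. With the longest protein-coding transcript as the length, an alternative chosen after seeing the data, *Cyp2d12* moved from 159 to 372 CPM per kilobase and kept the fourth place, but its highest floxed control mouse, at 628, then lay above the mean of *Cyp2a4*, and *Cyp2d9* moved from 138 to 214 and above *Cyp2j11*. By subfamily, with annotated exon as the length, Cyp2e held 32.9% of the summed level, Cyp2j 31.1%, Cyp2a 19.8%, Cyp2d 13.7% and Cyp2c 2.04%. The 9 Cyp3a genes together held 0.00975%. The order of subfamilies depended on the scale. In summed CPM of floxed control mice, without a length, Cyp2j (2150) came before Cyp2e (1988), and Cyp2d (1153) before Cyp2a (999.6).

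**Figure D1:**
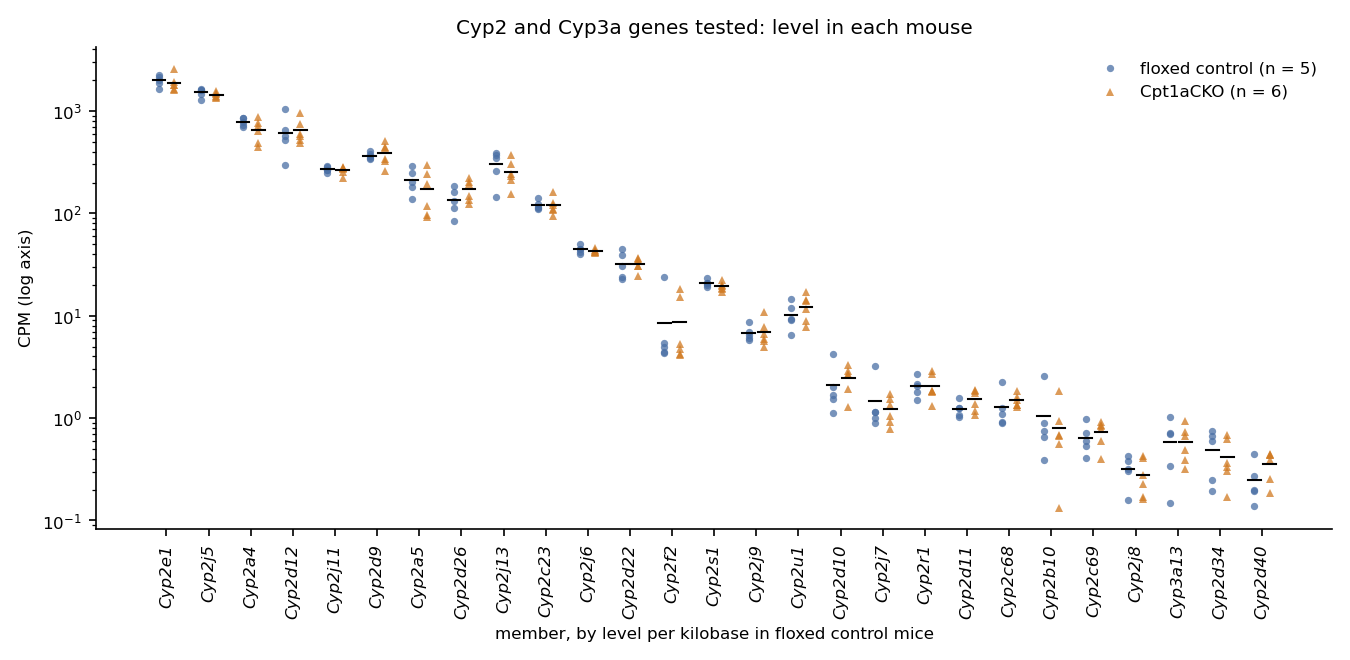
CPM after TMM normalization on a log axis for the 27 members with enough reads to be tested, ordered by level per kilobase in floxed control mice. Each circle is a floxed control mouse (n = 5), each triangle a Cpt1aCKO mouse (n = 6) and each bar a group mean. Levels run from Cyp2e1 at about 1988 CPM to Cyp2d40 at 0.249 CPM in floxed control mice, and the groups overlap for every member.

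No difference between the genotypes passed the test for any member. Of the 57 members, 27 had enough reads for edgeR's quasi-likelihood test, and 0 of the 27 passed at a Benjamini-Hochberg adjusted p under 0.05, against 0.0165% of the 18160 genes tested (3 genes). At an unadjusted p under 0.05, 0 members were higher in Cpt1aCKO mice, against 3.35% of all genes tested, and 0 were lower, against 2.57%. DESeq2 and limma-voom on the same genes also called 0 members at either threshold. DESeq2 called 0.275% of the 18160 genes at its adjusted p. It gave no adjusted p for 2831 of them, among these the members *Cyp2j8*, *Cyp2d34* and *Cyp2d40*. The groups overlapped for all 27 members, while 0.611% of all genes tested had groups that did not. A log2 fold change is given throughout as Cpt1aCKO over floxed control. It was positive for 13 members and negative for 14, with a median of -0.01 over the members and 0.01 over all genes tested. The exact permutation test over the mice (two-sided, unadjusted, 27 members) gave p from 0.149 to 0.998, where the smallest p that 6 mice against 5 allow is 0.00216.

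These intervals set how large a difference could have been missed. The 95% interval of the fold change lay within 1.5-fold in either direction for 10 of the 27 members and within 2-fold for 19. The members with the smallest p from edgeR were *Cyp2a4* and *Cyp2d26*, both with an adjusted p of 0.863. The summed level of all 57 members was 6457 ± 621 CPM (SD, n = 5) in floxed control mice and 6130 ± 569 CPM (SD, n = 6) in Cpt1aCKO mice, with ranges of 5735 to 7056 CPM and 5434 to 6953 CPM that overlapped over most of their length. It amounted to 0.544% to 0.712% of the reads on genes in a mouse.

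**Figure D2:**
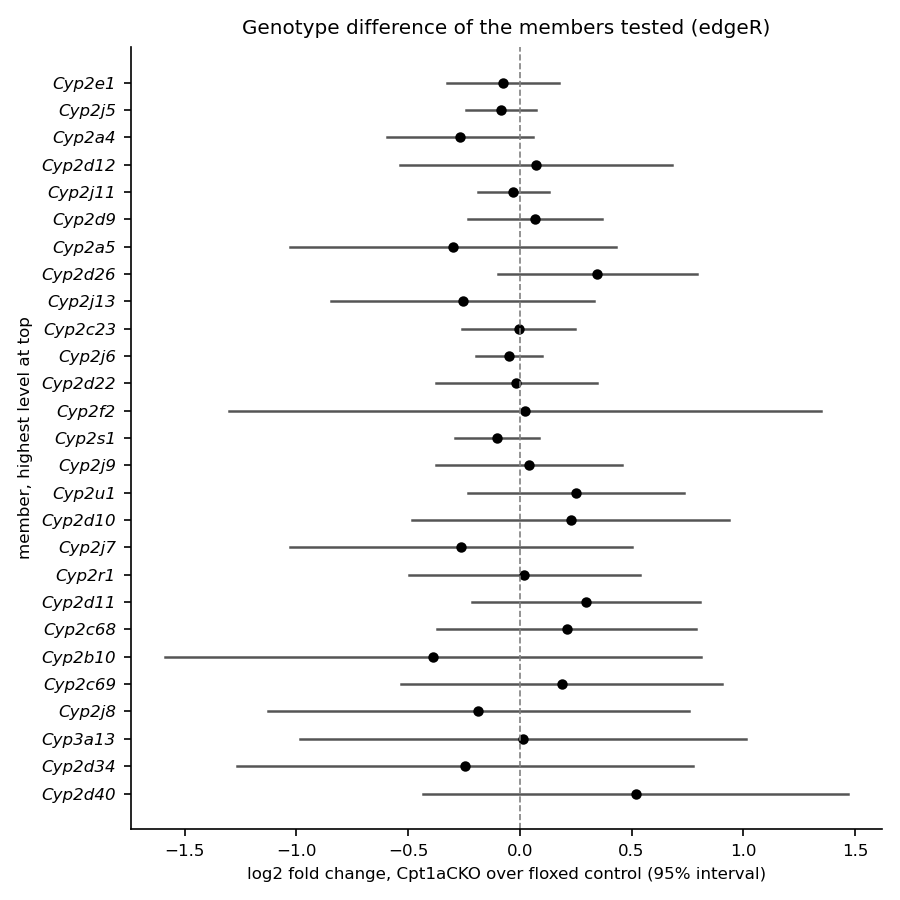
Log2 fold change of Cpt1aCKO (n = 6) over floxed control (n = 5) for the 27 members tested, with 95% intervals from edgeR, ordered by level with the highest at the top. Every interval includes 0, and the narrowest are those of Cyp2j5, Cyp2j11, Cyp2j6 and Cyp2s1.

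*Cyp2e1* was at 2161, 2236, 1651, 1871 and 2020 CPM in the 5 floxed control mice, and at 1595 to 2573 CPM (median 1801) in the 6 Cpt1aCKO mice. The Cpt1aCKO mouse S2577 was above every other mouse, and the other 5 lay within or just below the floxed control range. The log2 fold change was -0.08 (95% interval -0.33 to 0.18, standard error 0.118, adjusted p = 0.959 from edgeR).

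Among the arachidonic acid epoxygenases, *Cyp2j5* was at 1618, 1639, 1285, 1476 and 1612 CPM in floxed control mice and at 1339 to 1567 CPM (median 1430) in Cpt1aCKO mice. It was one of the steadiest members, with all 11 mice within 1.28-fold of each other and a log2 fold change of -0.08 (95% interval -0.24 to 0.07). *Cyp2c23*, the renal epoxygenase of the Cyp2c subfamily, was at 115, 123, 111, 114 and 141 CPM in floxed control mice and 93.4 to 163 CPM (median 116) in Cpt1aCKO mice. Its group means were nearly the same, at 121 and 120 CPM (log2 fold change -0.01, 95% interval -0.26 to 0.25). It made up nearly all of the Cyp2c reads, as the 15 Cyp2c genes summed to 123 ± 12.2 CPM in floxed controls (SD, n = 5).

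The other Cyp2j genes split into steady and variable members. *Cyp2j11* was at 289, 286, 264, 262 and 247 CPM in floxed control mice and 221 to 284 CPM (median 275) in Cpt1aCKO mice (log2 fold change -0.03, 95% interval -0.19 to 0.13). *Cyp2j6* was at 39.95, 45.1, 44.3, 50.3 and 42.1 CPM in floxed control mice and 40.9 to 45.8 CPM (median 42.6) in Cpt1aCKO mice, the narrowest range between mice among all members tested. *Cyp2j13* spread more widely, at 346, 371, 144, 257 and 392 CPM in floxed control mice and 153 to 373 CPM (median 238) in Cpt1aCKO mice. Its lowest mouse was the floxed control S7762 and its highest the floxed control S2578. These were also the lowest and the highest mouse for the summed markers of the S3 segment of the proximal tubule, at 726 and 1787 CPM. Among floxed control mice they were also lowest and highest for the summed androgen-responsive genes described below (13238 and 19948 CPM). For the summed genes higher in female kidney, S7762 was the highest floxed control and S2578 the lowest (713 and 171 CPM). Most of each of these sums came from *Cyp4a14* alone, at 428 and 98.2 CPM. The part of these lists in this spread was not tested. The log2 fold change of *Cyp2j13* was -0.26 (95% interval -0.84 to 0.33).
*Cyp2j9* was at 8.68, 5.80, 6.41, 6.92 and 6.07 CPM in floxed control mice and 4.92 to 10.8 CPM (median 6.26) in Cpt1aCKO mice. *Cyp2j7* was at 3.22 CPM in the floxed control mouse S2152, at 0.892 to 1.15 CPM in the other 4, and at 0.788 to 1.72 CPM (median 1.196) in Cpt1aCKO mice. The negative log2 fold change of *Cyp2j7*, -0.26, rested on S2152 and was 0.23 without this mouse.

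The Cyp2a subfamily held 19.8% of the summed level, nearly all of it as *Cyp2a4* and *Cyp2a5*. *Cyp2a4* was at 861, 702, 782, 728 and 861 CPM in floxed control mice. In Cpt1aCKO mice it was at 440 to 867 CPM (median 679), with S2394 and S2397 at 440 and 490 CPM below all other mice and S7763 at 867 CPM above all. Its log2 fold change was -0.27 (95% interval -0.59 to 0.06, standard error 0.152, exact permutation p = 0.149). With 1 mouse left out at a time it ranged from -0.36 without S7763, which passed the unadjusted threshold of edgeR with an adjusted p of 0.822, to -0.17 without S2394.
*Cyp2a5* was at 293, 139, 249, 202 and 181 CPM in floxed control mice and 91.1 to 296 CPM (median 156) in Cpt1aCKO mice. S2394, S2397 and S7602 were below every floxed control mouse and S7763 was above all, and the log2 fold change was -0.30 (95% interval -1.03 to 0.43). *Cyp2a4* was 4.65 ± 1.13 times as abundant per kilobase as *Cyp2a5* in floxed control mice (SD, n = 5) and 5.11 ± 1.85 times in Cpt1aCKO mice (SD, n = 6). The ratio ranged from 3.49 to 8.43 over all mice, and an exact permutation test between the genotypes gave a two-sided p of 0.697. The other Cyp2a genes, *Cyp2a12* and *Cyp2a22*, had 63 and 45 reads over all 11 mice, 33 and 23 of them in S7602.

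The 8 Cyp2d genes all had enough reads to be tested. The subfamily holds steroid and drug hydroxylases, among them *Cyp2d9*, a male-predominant steroid hydroxylase of liver and kidney, and *Cyp2d22*, often taken as the mouse counterpart of human CYP2D6. *Cyp2d12* was highest in reads and uneven between mice, at 657, 568, 517, 298 and 1039 CPM in floxed control mice and 491 to 956 CPM (median 584) in Cpt1aCKO mice. Both its lowest and its highest mouse were floxed controls, and the log2 fold change was 0.07 (95% interval -0.54 to 0.68), or 0.35 without S2578 and -0.10 without S2582.
*Cyp2d9* was at 380, 337, 402, 347 and 364 CPM in floxed control mice and 262 to 509 CPM (median 386) in Cpt1aCKO mice, so the Cpt1aCKO mice reached both below and above the controls (log2 fold change 0.07, 95% interval -0.23 to 0.37). *Cyp2d26* was at 113, 131, 184, 161 and 84.4 CPM in floxed control mice and 124 to 223 CPM (median 170) in Cpt1aCKO mice. Of the Cpt1aCKO mice, S2155, S2394 and S2397 were above every floxed control mouse, and the log2 fold change was 0.35 (95% interval -0.10 to 0.79, exact permutation p = 0.156). With 1 mouse left out at a time it ranged from 0.22 without S2578 to 0.49 without S7762.
*Cyp2d22* was at 30.3, 24.1, 45.1, 39.2 and 22.9 CPM in floxed control mice and 24.5 to 36.4 CPM (median 32.3) in Cpt1aCKO mice. *Cyp2d10* was at 1.11, 1.52, 4.18, 1.68 and 2.00 CPM in floxed control mice and 1.29 to 3.30 CPM (median 2.68) in Cpt1aCKO mice, and *Cyp2d11* was at 1.26, 1.08, 1.57, 1.26 and 1.03 CPM against 1.08 to 1.90 CPM (median 1.57). The floxed control mouse S7762 was the highest mouse for both *Cyp2d10* and *Cyp2d22*. With it left out, *Cyp2d26* (log2 fold change 0.49), *Cyp2d10* (0.64) and the Cyp2c gene *Cyp2c68* (0.51) were higher and *Cyp2j5* (-0.14) was lower at an unadjusted edgeR p under 0.05, with adjusted p of 0.936 or more.

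Among the members present as single-gene subfamilies, *Cyp2s1*, an extrahepatic gene inducible through the aryl hydrocarbon receptor, was steady at 20.8, 19.8, 19.1, 23.2 and 20.6 CPM in floxed control mice and 17.2 to 22.3 CPM (median 19.0) in Cpt1aCKO mice. Its log2 fold change was -0.10 (95% interval -0.29 to 0.09). *Cyp2u1*, a hydroxylase of long-chain fatty acids, was at 9.18, 9.36, 11.8, 14.6 and 6.45 CPM in floxed control mice and 7.76 to 16.96 CPM (median 12.8) in Cpt1aCKO mice (log2 fold change 0.25, 95% interval -0.23 to 0.73). *Cyp2r1*, the main enzyme of the initial activation step of vitamin D in the liver, was low but present in every mouse, at 2.67, 2.18, 2.06, 1.51 and 1.78 CPM in floxed control mice and 1.31 to 2.90 CPM (median 1.85) in Cpt1aCKO mice. Its log2 fold change was 0.02 (95% interval -0.50 to 0.54).

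*Cyp2f2*, best known from the club cells of the airway where it activates naphthalene, had 2 levels rather than a continuous spread. It was at 23.7 CPM in the floxed control mouse S2152 and at 15.2 and 18.3 CPM in the Cpt1aCKO mice S7763 and S2577. The other 8 mice, 4 in each group, lay between 4.16 and 5.37 CPM. Both groups therefore had nearly the same mean, 8.57 ± 8.49 CPM (SD, n = 5) and 8.66 ± 6.36 CPM (SD, n = 6), with a log2 fold change of 0.02 and a wide 95% interval of -1.30 to 1.35. Without S2152 the log2 fold change was 0.86. The same 3 mice were the 3 highest for *Cyp2j7*, and the high mice came from both number series of the mouse names (S2 and S7).

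**Figure D3:**
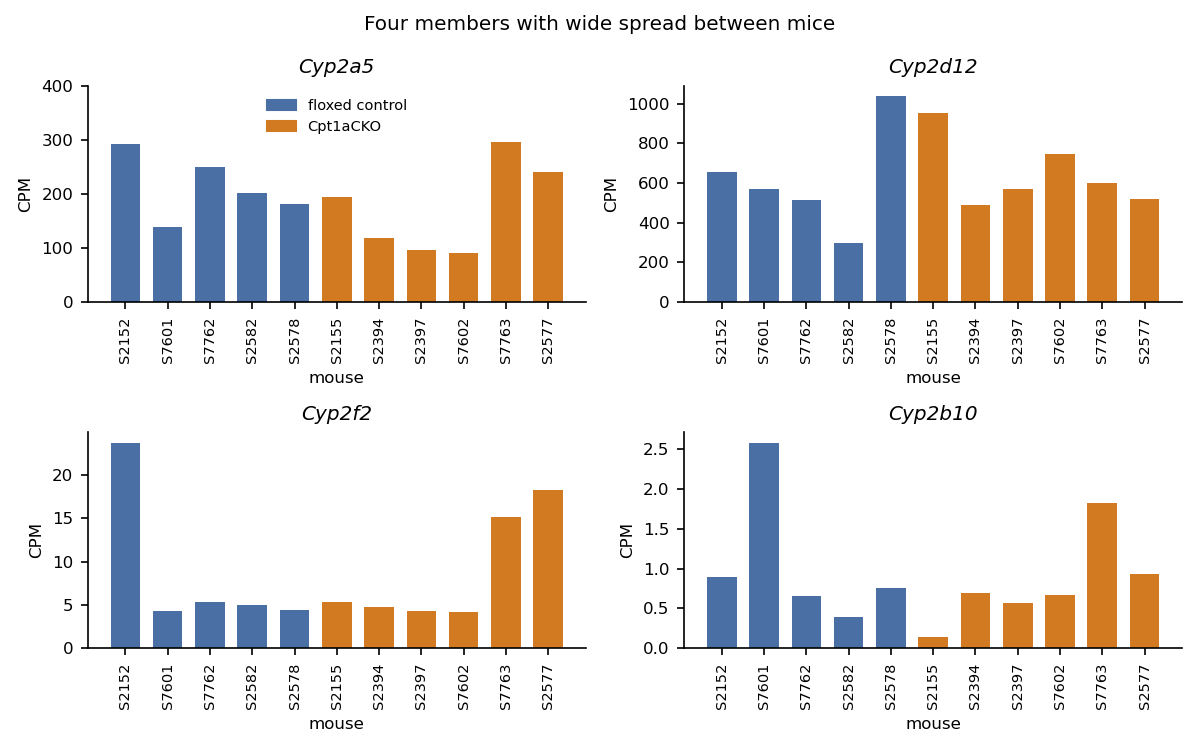
CPM after TMM normalization in each of the 11 mice for Cyp2a5, Cyp2d12, Cyp2f2 and Cyp2b10, with bars from 0, blue for floxed control (n = 5) and orange for Cpt1aCKO (n = 6). Cyp2f2 is at 15.2 CPM or more in S2152, S7763 and S2577 and at 5.37 CPM or less in the rest, while Cyp2b10 is highest in S7601 and lowest in S2155.

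Spread between mice of a group was measured as the edgeR dispersion set against the trend for genes of like level. It was above the trend for 13 of the 27 members (48.1%) and for 27.3% of all genes tested, a description without a test, since copies of a cluster are related. The ratio of spread to trend was largest for *Cyp2f2* (2.90), *Cyp2a5* (2.75), *Cyp2d12* (2.31) and *Cyp2j13* (2.24), and smallest for *Cyp2d11* (0.661).

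**Figure D4:**
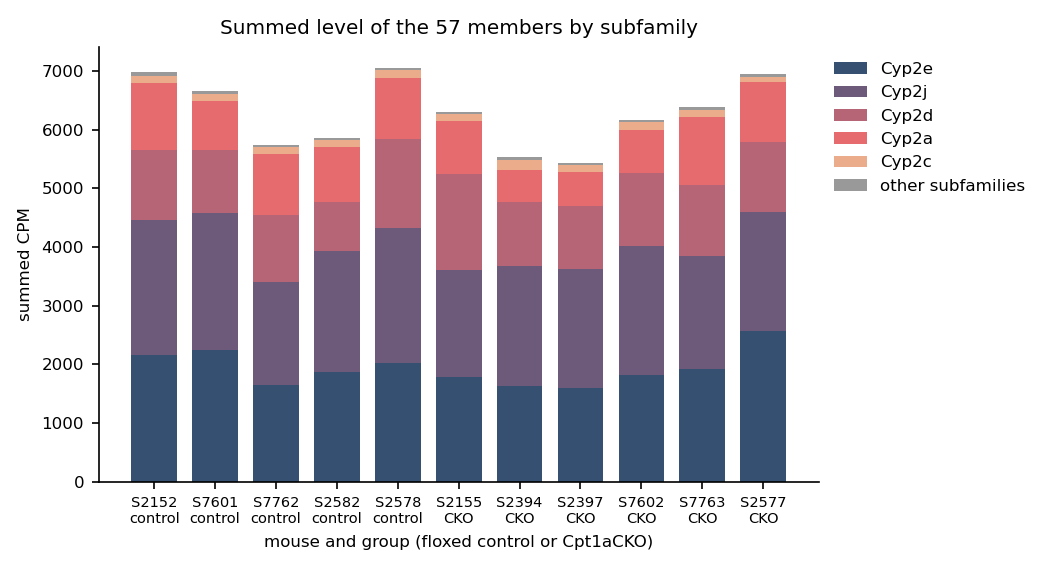
Summed CPM of the 57 members in each mouse, stacked from 0 by subfamily, for the 5 floxed control mice and the 6 Cpt1aCKO mice. Totals lie between 5434 and 7056 CPM, Cyp2e1 and the Cyp2j genes make up the lower part of every bar, and the heights of the groups overlap.

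*Cyp2b10*, the classic target of the constitutive androstane receptor, was at 0.891, 2.58, 0.658, 0.390 and 0.752 CPM in floxed control mice and 0.134 to 1.82 CPM (median 0.677) in Cpt1aCKO mice. The range in CPM was 19.3-fold between S7601, with 134 reads, and S2155, with only 6 reads. The other tested members under a mean of 1 CPM were *Cyp2c69*, *Cyp3a13*, *Cyp2d34*, *Cyp2j8* and *Cyp2d40*, with a lowest value of 0.138 CPM (*Cyp2d40*) and a highest of 1.03 CPM (*Cyp3a13*) in any mouse. Of these, *Cyp2c69* was at 0.642 ± 0.214 CPM in floxed control mice (SD, n = 5) and 0.731 ± 0.196 CPM in Cpt1aCKO mice (SD, n = 6), and *Cyp3a13*, the only Cyp3a gene tested, at 0.584 ± 0.345 CPM and 0.590 ± 0.233 CPM. *Cyp2c68* was at 0.915, 1.25, 2.25, 0.904 and 1.11 CPM in floxed control mice and 1.28 to 1.86 CPM (median 1.42) in Cpt1aCKO mice, and 19.8% of its windows of 100 bases also occurred in other genes.

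The remaining 30 members had too few reads to be tested, 776 reads in all over the 11 mice and no member above 0.759 CPM in any mouse. They were 12 Cyp2c genes, 8 Cyp3a genes, 4 Cyp2b genes, *Cyp2a12*, *Cyp2a22*, *Cyp2g1*, *Cyp2j12*, *Cyp2t4* and *Cyp2w1*. *Cyp2c54* and *Cyp3a41b* had no read in any mouse. For *Cyp2c54*, with 7.59% of its windows shared, this allows a level of up to 0.00547 CPM over all mice, a limit that covers counting error only. For *Cyp3a41b*, with 88.2% of its windows shared, the limit is looser and was not computed, since shared reads could not be assigned. *Cyp3a11*, the main drug-metabolizing Cyp3a gene of mouse liver, had 71 reads, 16 of them in S7602, and *Cyp2c29*, a liver epoxygenase, had 38, of which 20 were in S2577.
Reads on these 30 members were uneven between libraries. Mouse S7602 had 261 of them, S2152 had 90 and the other 9 mice had 22 to 65 each. S7602 was the highest mouse for 16 of the 28 members with any read and S2152 for 6. These were also the mice with the most reads on olfactory receptor genes, at 158 and 40.8 CPM. With no filter on low counts, *Cyp2c66* (29 reads), *Cyp2c37* (8 reads) and *Cyp2c39* (5 reads) had an unadjusted edgeR p under 0.05, all with an adjusted p of 0.531. All 3 had 0 reads in every floxed control mouse, and 25 of the 29 *Cyp2c66* reads were in S7602.

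**Figure D5:**
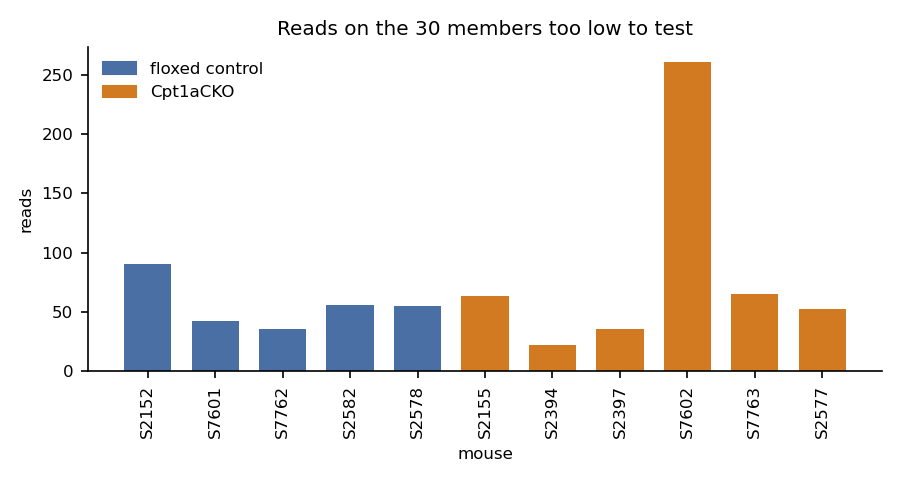
Reads on the 30 members too low to test, in each of the 11 mice, as bars from 0 in blue for floxed control (n = 5) and orange for Cpt1aCKO (n = 6). S7602 has 261 reads, S2152 has 90, and the other mice have 22 to 65.

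The markers of other organs that express these families were measured beside them. The 11 hepatocyte markers summed to 91.7 to 148 CPM in floxed control mice and 85.7 to 129 CPM in Cpt1aCKO mice, most of it from *Fga* (33.9 and 35.5 CPM), *Ttr* (29.6 and 22.2 CPM), *Apoc3* (19.3 and 15.9 CPM), *Fgg* (13.2 and 14.9 CPM) and *Alb* (12.7 and 11.003 CPM), and 0 of 8 tested passed at an unadjusted p under 0.05. The 3 not tested were *Ahsg*, with 10 reads, all in S7602, *Cps1*, with 23 reads, 16 of them in S7602, and *Hpx*, with 62 reads, 19 of them in S7602. The defining adrenal gene *Cyp11b2* had 13 reads, all in S7602, and the 6 adrenal markers summed to at most 2.82 CPM, mostly from *Star* (1.82 and 1.35 CPM). *Adipoq*, which defines adipocytes, had no read in any mouse. The 6 adipocyte markers summed to at most 1.73 CPM outside S7602, with *Cidec* at a mean of 0.949 and 0.737 CPM, and to 2.28 CPM in S7602, where *Lep* had 52 of its 77 reads.
Among the markers of tubule segments, 0 of 5 for the S1 and S2 segments passed at an unadjusted p under 0.05, with *Slc34a1* at 9959 and 9743 CPM and *Lrp2* at 830 and 884 CPM. At that threshold, *Slc22a7* of 4 S3 markers was lower (149 against 85.9 CPM, adjusted p = 0.823 from edgeR), and of 4 distal markers *Umod* (2477 against 2112 CPM, adjusted p = 0.755 from edgeR) and *Slc12a3* (772 against 664 CPM, adjusted p = 0.839 from edgeR) were lower, with floxed control given first throughout. Of 6 macrophage markers at the same threshold, *C1qa* (12.2 against 18.0 CPM, adjusted p = 0.527 from edgeR) and *C1qb* (25.2 against 36.2 CPM, adjusted p = 0.674 from edgeR) were higher. The log2 fold change was positive for 5 of the 6, with a median of 0.37. The most abundant of them, *Csf1r*, went the other way (53.0 against 49.8 CPM). The part of these cell types in the members' levels was not tested.

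The enzymes that serve P450s were then examined. Of 6 redox partners, 2 were lower at an unadjusted p under 0.05 and 0 at an adjusted p under 0.05 by edgeR or DESeq2, with a median log2 fold change of -0.09. *Por*, the reductase that supplies every microsomal P450 with electrons, was at 519, 511, 465, 468 and 535 CPM in floxed control mice and 396 to 461 CPM in Cpt1aCKO mice. The groups did not overlap, as for 0.611% of all genes tested. The log2 fold change of *Por* was -0.23 (95% interval -0.36 to -0.10, adjusted p = 0.552 from edgeR and 0.0731 from DESeq2). *Cyb5r3*, the reductase of cytochrome b5, was at 498, 354, 426, 589 and 448 CPM in floxed control mice and 310 to 446 CPM in Cpt1aCKO mice (log2 fold change -0.37, adjusted p = 0.730 from edgeR). Neither passed the adjusted threshold.

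Of 8 enzymes of heme synthesis, 0 passed at either threshold (median log2 fold change -0.06). *Alas1*, the rate-limiting enzyme, was at 425 ± 111 CPM (SD, n = 5) in floxed control mice and 358 ± 71.7 CPM (SD, n = 6) in Cpt1aCKO mice, and *Alad* at 241 ± 28.3 and 257 ± 46.7 CPM. Of the 2 heme oxygenases, which break heme down, the inducible *Hmox1* was at 25.1 ± 4.83 CPM (SD, n = 5) and 30.9 ± 4.80 CPM (SD, n = 6), higher at the unadjusted threshold with an adjusted p of 0.839 from edgeR.
Of 4 epoxide hydrolases, 3 were tested. *Ephx1*, the microsomal hydrolase of epoxides formed by P450s, was at 59.4, 83.0, 91.2, 79.0 and 67.4 CPM in floxed control mice and 71.3 to 124 CPM in Cpt1aCKO mice. The groups overlapped through the Cpt1aCKO mice S7602 and S2397, and the log2 fold change was 0.39 (adjusted p = 0.755 from edgeR). *Ephx2*, the soluble hydrolase that removes the epoxides of arachidonic acid, was at 789 ± 76.8 CPM (SD, n = 5) and 810 ± 86.3 CPM (SD, n = 6), with a log2 fold change of 0.04.

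Of 18 regulators of P450 genes, 17 were tested, 1 was higher at an unadjusted p under 0.05 and 0 at an adjusted p (median log2 fold change 0.07). This was *Nr1h4*, the bile acid receptor, at 152 ± 23.9 CPM (SD, n = 5) and 177 ± 13.1 CPM (SD, n = 6), with overlapping groups (adjusted p = 0.830 from edgeR). The receptor that drives *Cyp2b10* in the liver, *Nr1i3*, was near 0, at 0.0914 CPM in floxed control mice and 0.0882 CPM in Cpt1aCKO mice, and was not tested. *Nr1i2*, the drug-sensing receptor that acts on Cyp3a genes, was at 3.198 ± 0.735 CPM (SD, n = 5) and 4.13 ± 0.785 CPM (SD, n = 6), with an adjusted p of 0.863 from edgeR. By contrast *Hnf4a*, a receptor shared by liver and proximal tubule, was at 365 ± 78.5 CPM and 424 ± 109 CPM.
Since several members respond to sex hormones, genes with a known sex bias in mouse kidney were read as well. Of 9 androgen-responsive genes, 1 was higher at an unadjusted p under 0.05, *Cyp4a12a* at 308 ± 64.0 and 508 ± 117 CPM (adjusted p = 0.446 from edgeR), and the median log2 fold change of the 9 was -0.24. Of 4 genes higher in female kidney, 1 was higher at that threshold, *Cyp4a14*, at 220 ± 171 and 776 ± 466 CPM (adjusted p = 0.772 from edgeR).

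Both of these belong to the fatty acid hydroxylases of family 4. The list of other P450 genes held 42 protein-coding genes whose symbol is Cyp with a number, letters and a number, *Cyp2ab1* included. P450 genes with other forms of symbol fall outside it. Of the 42, 26 were tested, 5 were higher at an unadjusted p under 0.05 and 0 lower, and all 5 were Cyp4a genes. Of the 27 members, 0 were higher and 0 lower. *Cyp4a12b*, at 91.8 ± 15.0 and 203 ± 26.8 CPM (log2 fold change 1.14, standard error 0.119), was the P450 gene that passed the adjusted threshold (adjusted p = 0.00124 from edgeR). *Cyp4a10* was at 846 ± 257 and 1477 ± 549 CPM and *Cyp4a32* at 7.70 ± 1.56 and 12.3 ± 4.08 CPM. The median log2 fold change was 0.12 for the tested genes of this list and -0.01 for the members. The difference between these groups of genes was not tested, and Cyp4a genes are close copies among which reads may be shared.

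The start regions of the members were searched for the short motifs named with the printed sequences, on both strands of the 250 bases before each RefSeq start site, for the 49 members with an entry. A member counted once if any of its start sites held the motif, whereas the share over all was taken per start region. *Cyp2c39*, *Cyp2j13* and *Cyp3a25* had 2 start sites each. The TATA box motif occurred in 23 of the 49 (46.9%) and in 12.4% of all 32851 start regions in the table. The HNF4 motif occurred in 10 members (20.4%) and in 0.384% of all start regions. The nuclear receptor motif occurred in 15 (30.6% against 14.0% of all) and the HNF1 motif in 6 (12.2% against 6.43%). The 10 members with the HNF4 motif were all Cyp2c or Cyp3a genes, and of these *Cyp2c68* and *Cyp2c69* had enough reads to be tested. The 3 most abundant members, *Cyp2e1*, *Cyp2j5* and *Cyp2a4*, held the TATA box motif and lacked the HNF4 motif in this window. Members of a cluster are copies of each other and count repeatedly in such shares, and a match is a description of the letters and no evidence of binding.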

How the data were processed

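Bulk RNA-Seq counts of 11 mouse kidney cortex libraries (5 floxed control, 6 Cpt1aCKO) were analyzed, grouped by the sample labels. The deposited raw counts come from TruSeq stranded mRNA libraries, aligned by the authors with STAR 2.7.3a and counted with HTSeq, whose version is not given in the sources used here. Their normalization with DESeq2, their Cufflinks 2.2.1 values and the deposited columns of fold changes, p-values and normalized counts were not used here. Neither the genome build nor the annotation is given in the sources used here. GENCODE M21 and RefSeq (GRCm38.p6) were used for lengths and sequences, with all 57 members matched to GENCODE M21 and 49 to a RefSeq start region.

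Counts were analyzed in R 4.3.3 with edgeR 4.0.16 (filterByExpr by group, TMM, robust quasi-likelihood fit, Benjamini-Hochberg adjustment over all 18160 genes tested, threshold 0.05). Intervals are 95%. Log2 CPM for the permutation tests over the 462 divisions of the mice used a prior count of 2. The scripts were tested on simulated data. The closest libraries of a group differed by 23.3 times the sampling noise, so none was a copy of another in its group. The study describes the controls as littermates, but the labels give no litters, so no mice were paired.

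Values per mouse are given for members with a mean of at least 1 CPM or an unadjusted p under 0.05, and up to 4 members below that. Of each other list, members with an unadjusted p under 0.05 are named, otherwise the 2 of highest mean. Genes named beyond this rule were chosen for their role or after their values were seen. The members and the lists (redox partners, heme synthesis, heme oxygenases, epoxide hydrolases, regulators, sex-biased genes, cell markers, other P450 genes) were chosen with earlier results of these data known. Alternatives were DESeq2 1.42.0, limma-voom (limma 3.58.1), other normalizations and filters, a fit that was not robust, the number series (S2 or S7) in the mouse names as an added term, and fits without each mouse.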

Additional observations from a re-analysis of the deposited data

Results flagged for a closer look

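For each of the 27 members tested, the mice of each genotype were examined for a mouse far from the rest, by its gap to the nearest mouse as a share of the group's range. Of 54 groups of values, 6 had such a mouse (11.1%). The rule flags about 1 in 20 groups of independent, normally distributed values. CPM of related genes in the same mice need not be such values, so no excess is read from this share. Among floxed control mice, S2152 was at 23.7 CPM for *Cyp2f2* (nearest mouse 5.37) and at 3.22 CPM for *Cyp2j7* (nearest 1.15). Mouse S7762 was at 4.18 CPM for *Cyp2d10* (nearest 2.00) and at 2.25 CPM for *Cyp2c68* (nearest 1.25), and S7601 was at 2.58 CPM for *Cyp2b10* (nearest 0.891). Among Cpt1aCKO mice, S2577 was at 2573 CPM for *Cyp2e1* (nearest 1918). In each case the mouse was the highest of its group, and the cause was not tested.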

How the results depend on the processing

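Of the 27 members, 15 kept their direction in every alternative in which they were tested, and no member passed an adjusted p under 0.05 in any (lowest 0.534). With no filter 3 members were higher at an unadjusted p under 0.05. With each mouse left out, members higher at that threshold numbered 0 to 3 and members lower 0 to 1, the 3 and 1 without S7762 and 1 lower without S7763. Small log2 fold changes changed sign for *Cyp2d22* (0.029) and *Cyp2r1* (-0.0077) under limma-voom and for *Cyp3a13* (-0.00023) with the number series as a covariate. With each mouse left out they ranged from -0.12 to 0.14 for *Cyp2d22*, -0.10 to 0.14 for *Cyp2r1*, -0.23 to 0.32 for *Cyp3a13*, -0.40 to 0.23 for *Cyp2j7*, -0.11 to 0.058 for *Cyp2c23*, -0.35 to 0.86 for *Cyp2f2*, -0.13 to 0.15 for *Cyp2j9*, -0.82 to 0.27 for *Cyp2b10*, -0.10 to 0.35 for *Cyp2d12*, -0.081 to 0.0056 for *Cyp2j6*, -0.058 to 0.017 for *Cyp2j11* and -0.026 to 0.16 for *Cyp2d9*. Over all genes, edgeR called 3, limma-voom 2 and DESeq2 50 at an adjusted p under 0.05. Levels per kilobase moved by more than 1 SD for 9 members with the longest coding transcript, and the 10 highest were the same genes. DESeq2 called *Cyp4a12a* (adjusted p = 0.00658 from DESeq2), which edgeR did not.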
